A study of Homo sapiens with 16 samples.

Results

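The genes described here are 10 that receive, carry, remove or take up retinoids, chosen by name from the table of read counts of SH-SY5Y libraries. They are the nuclear receptors RARA, RARB, RARG and RXRA, the carriers CRABP1 and CRABP2, the degrading enzymes CYP26A1 and CYP26B1, the retinal reductase DHRS3 and the retinol uptake receptor STRA6. They make up 10 of 69222 gene rows. Of these, 9 had enough reads to be among the 18081 genes tested, and STRA6 did not, with 1 read in 16 libraries.

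The cells were SH-SY5Y, a line from a human neuroblastoma that takes on features of neurons when it is given retinoic acid and the growth factor BDNF. The 8 groups of 2 libraries each were cells differentiated on films of P(rGO), a polymer and reduced graphene oxide composite, of PEDOT:PSS, a conducting polymer blend, or of indium tin oxide (ITO), each with and without electrical stimulation (ES), then cells differentiated on culture plates, and untreated cells on culture plates. All 7 differentiated groups went through serum steps of 5%, 2.5% and 1% on days 2, 3 and 5, had 10 µM retinoic acid from day 3 until day 6, and had 50 ng/mL BDNF for a further 4 days, so RNA was taken after the retinoic acid had been replaced. Stimulation was a square wave of 0.1 V peak to peak at 1 Hz for 8 h each day of those 4 days. The films were coated with poly-L-lysine and laminin, and the labels name no coat for the plates. No label gives the culture time or serum of the untreated cells.

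Retinoic acid made or taken up by a cell is bound by CRABP1 and CRABP2, small cytosolic proteins, of which CRABP2 can hand it to receptors in the nucleus. There a retinoic acid receptor (RARA, RARB or RARG) pairs with a retinoid X receptor such as RXRA, and the pair sits on response elements, which are direct repeats of a short half-site, and switches nearby genes on when the ligand binds. Several of those genes limit the signal: CYP26A1 and CYP26B1 oxidise retinoic acid, and DHRS3 turns retinal, its precursor, back to retinol. In neuroblastoma cells retinoic acid slows growth and promotes neurite formation.

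Response element letters were looked for in the promoter windows of the members, because RARB and CYP26A1 are known targets of the receptors and both move in the comparisons that follow. The windows ran from 250 bases before to 50 after each start site in RefSeq's table of GRCh38.p14, and all 10 members matched, with 23 windows. The motif was a direct repeat, on either strand and in exact letters, with 1, 2 or 5 bases between the half-sites. A half-site could read AGGTCA, the common form, or AGTTCA, as in both genes shown, or GGGTCA, a further known form, or GGTTCA, as in RARB. Some of these letters were taken from the known elements of RARB and CYP26A1, so finding those elements again is no result of the search. Such a repeat was present in these 2 of the 23 windows, both with a spacer of 5 bases. A repeat is held by 0.259% of all 35116 windows in RefSeq's table, and one with that spacer by 0.0883%, which says how common the letters are and makes no test of the members. The 150 bases before each start site are shown 5′ to 3′ on the gene's strand, with the half-sites in capitals, from chr3:25428113-25428262 (RARB) and chr10:93073743-93073892 (CYP26A1), both on the plus strand.
RARB: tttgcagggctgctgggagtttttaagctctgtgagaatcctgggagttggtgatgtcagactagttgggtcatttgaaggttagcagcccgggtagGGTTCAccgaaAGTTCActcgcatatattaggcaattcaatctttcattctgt
CYP26A1: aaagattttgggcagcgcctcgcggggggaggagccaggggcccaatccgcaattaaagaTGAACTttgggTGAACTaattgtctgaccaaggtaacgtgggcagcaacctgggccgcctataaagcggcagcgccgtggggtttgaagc
In the RARB window the repeat lies on the strand of the gene and begins at position -53 from the start site. In the CYP26A1 window it lies on the opposite strand, where it reads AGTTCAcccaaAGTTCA. As printed, on the gene's strand, its first base is at -90. These are matches of letters in 1 of the windows of each gene, and nothing was measured at these sites. The windows of CYP26B1, CRABP2 and DHRS3 hold no such letters, which says nothing of elements elsewhere in those genes.

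Depth was 15600410 to 20851000 reads assigned to genes per library. Levels are in CPM, a gene's counts per 1000000 reads after trimmed mean of M values scaling of the libraries, and comparisons of levels between genes are in CPM per kb of annotated exon. The spread between the replicates of a group, as a biological coefficient of variation, was 6.9% to 18.1% in the film groups, 18.1% on differentiated plates and 36.2% in untreated cells. Of the 2 differentiated plate libraries, replicate 1 was the lowest of all 14 differentiated libraries for 7 of the 9 members tested, so results that change without one of the plate libraries are given with and without it. The labels do not say whether replicates were separate cultures, so each p-value weighs a difference against the spread of these libraries, which could be technical. A gene was called at an adjusted p of at most 0.05 in edgeR's quasi-likelihood test, with Benjamini-Hochberg adjustment over the 18081 genes.

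**Figure D1:**
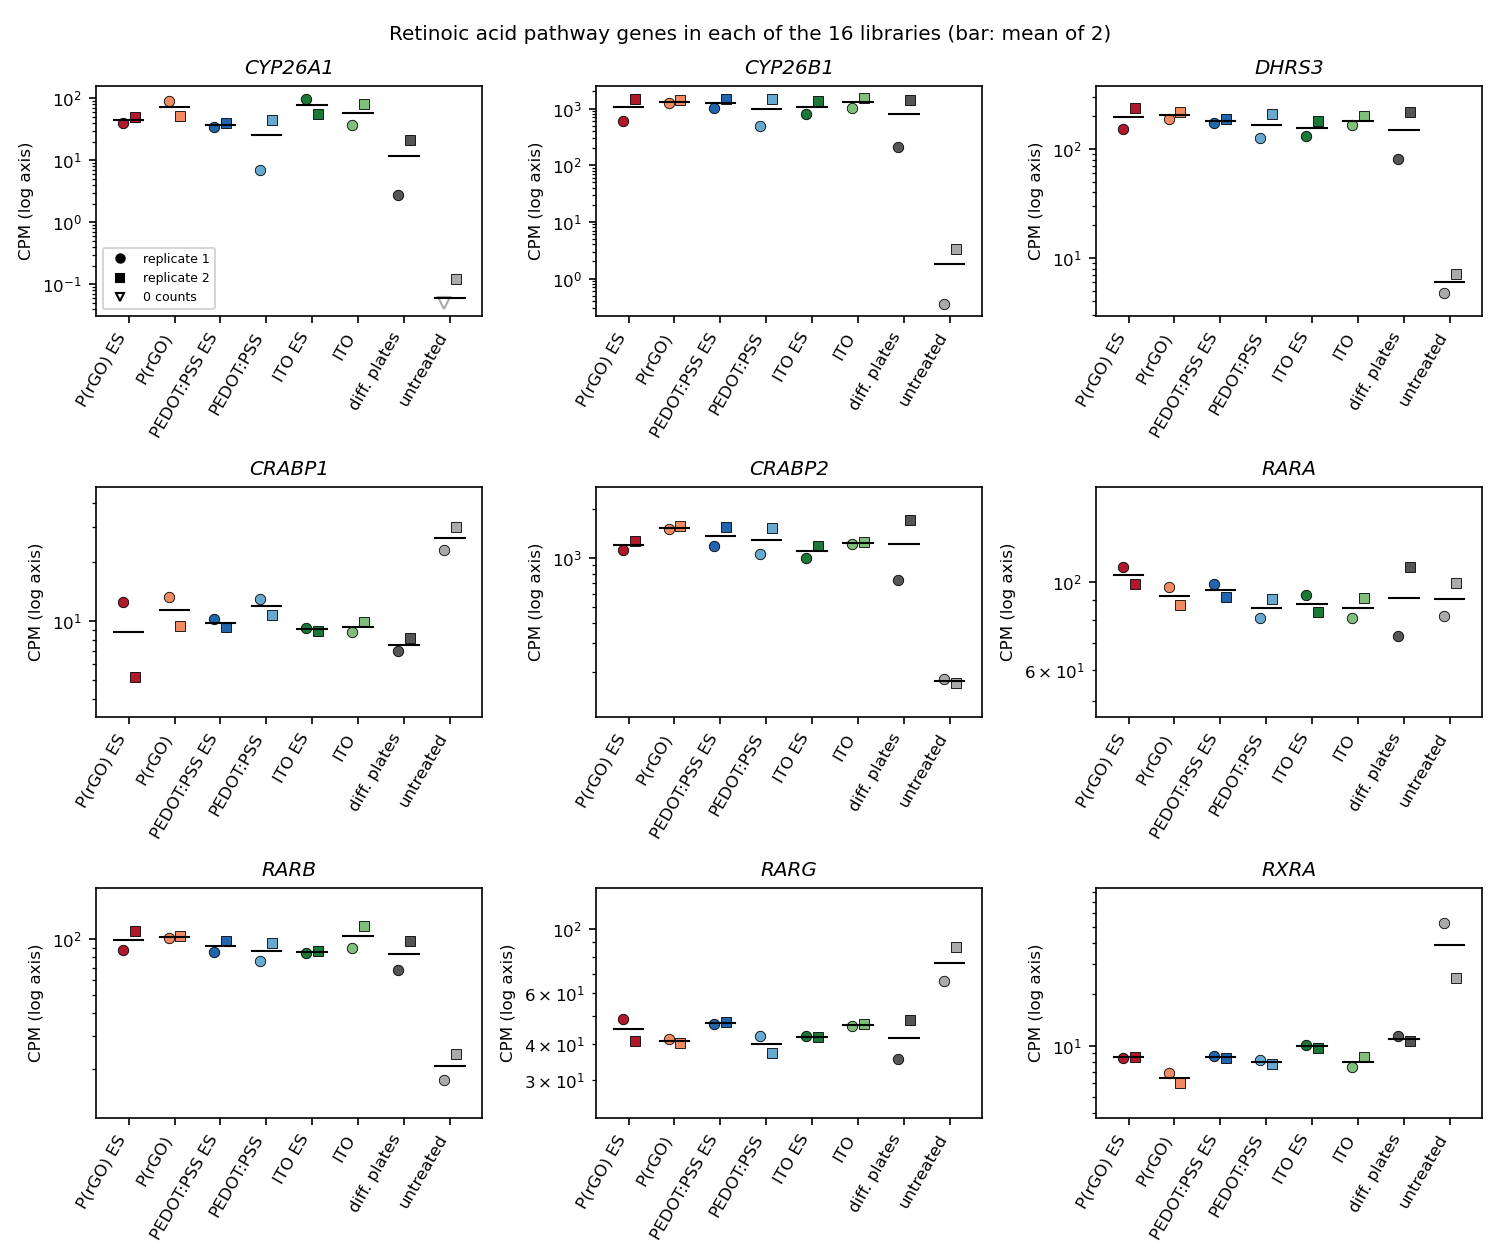
CPM (log axes) of the 9 members with enough reads in each of the 16 libraries, by group; circles are replicate 1, squares replicate 2, bars the mean of 2, and the open triangle a library with 0 counts, drawn at the foot of the CYP26A1 panel. CYP26A1, CYP26B1, DHRS3, CRABP2 and RARB lie higher in all 14 differentiated libraries than in both untreated ones, CRABP1, RARG and RXRA lie lower, and RARA overlaps.

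The first comparison sets differentiated cells against untreated cells. Retinoic acid, BDNF and the serum steps differ together between them, and the untreated cells' culture time and serum are not given. The parts of these cannot be told apart. Of the 9 members tested, 5 were higher and 3 lower in differentiated cells on plates than in untreated cells, where 29.6% of all genes tested were called (13.8% higher, 15.8% lower). The count was 7 without plate replicate 2, where 9.32% of all genes were called, and 8 without plate replicate 1, where 24.9% were. The 5 that rose were both degrading enzymes, DHRS3, the carrier CRABP2 and the receptor RARB. The 3 that fell were the receptors RARG and RXRA and the carrier CRABP1. With the 6 film groups averaged against the same untreated cells, the same 8 members were called in the same directions, where 47.9% of all genes were called (21.9% higher, 26% lower); the untreated libraries are shared by both comparisons. All 14 differentiated libraries lay above both untreated libraries for 5 members and below both for 3, against 15.7% and 17.2% of all genes.

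Among the receptors, RARB, on chromosome 3 (25174332 to 25597932, GRCh38), was the one that rose. It had 76.0 to 117 CPM in the 12 film libraries (median 92.6), 68.4 and 97.5 CPM on differentiated plates, and 17.6 and 24.1 CPM in untreated cells. Every differentiated library was thus above both untreated ones. The log2 fold change was 1.99 on plates (SE 0.21, adjusted p = 5.4e-05) and 2.18 for the films (SE 0.19, adjusted p = 1.3e-06). RARA, on chromosome 17 (40309192 to 40357643), had 81.0 to 109 CPM in the film libraries (median 91.7), 72.9 and 109 CPM on differentiated plates, and 82.2 and 99.5 CPM in untreated cells. The 3 sets overlap, and the log2 fold change of RARA was 0.00 on plates (95% interval -0.37 to 0.37) and 0.02 for the films (-0.27 to 0.30).

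RARG, on chromosome 12 (53210567 to 53232980), had 37.2 to 48.9 CPM in the film libraries (median 42.6), 35.6 and 48.4 CPM on differentiated plates, and 66.2 and 86.7 CPM in untreated cells. It fell by 0.86 on the log2 scale on plates (SE 0.17, adjusted p = 0.0026) and by 0.81 on the films (SE 0.12, adjusted p = 0.0001). RXRA, on chromosome 9 (134317098 to 134440585), had 6.02 to 10.0 CPM in the film libraries (median 8.43), 11.3 and 10.6 CPM on differentiated plates, and 52.9 and 25.0 CPM in untreated cells. Both untreated libraries were above every differentiated one, but they differ from each other more than any pair of differentiated replicates does for this gene. The log2 fold change of RXRA was -1.83 on plates (SE 0.27, adjusted p = 0.00047) and -2.25 on the films (SE 0.17, adjusted p = 5.2e-07). The receptors therefore did not move as a family: RARB rose, RARG and RXRA fell, and RARA overlapped.

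The 2 carriers moved in opposite directions. CRABP2, on chromosome 1 (156699606 to 156705816), had 1005 to 1565 CPM in the film libraries, 731 and 1705 CPM on differentiated plates, and 181 and 170.0 CPM in untreated cells. Its log2 fold change was 2.79 on plates (SE 0.31, adjusted p = 7.8e-05) and 2.87 on the films (SE 0.28, adjusted p = 3.2e-06). CRABP1, on chromosome 15 (78340324 to 78348230), had 5.21 to 13.3 CPM in the film libraries (median 9.64), 7.0 and 8.14 CPM on differentiated plates, and 22.9 and 30.0 CPM in untreated cells. It fell by 1.80 on plates (SE 0.32, adjusted p = 0.0014) and by 1.41 on the films (SE 0.21, adjusted p = 0.00011), both on the log2 scale. Per kb of exon, CRABP2 was at 1107 ± 626 CPM and CRABP1 at 7.62 ± 0.81 CPM on differentiated plates, and at 160 ± 7.3 and 26.6 ± 5.1 CPM in untreated cells (SD, n = 2 each), so CRABP2 was the higher of the carriers in both.

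CYP26B1, on chromosome 2 (72129238 to 72148038), is one of the enzymes that oxidise retinoic acid. It had 483 to 1559 CPM in the film libraries (median 1280), 212 and 1417 CPM on differentiated plates, and 0.355 and 3.27 CPM in untreated cells. The 2 plate libraries differ widely, yet the lower of them is far above both untreated ones. The log2 fold change was 8.82 on plates (SE 1.09, adjusted p = 0.00015) and 9.32 for the films (SE 1.07, adjusted p = 1.2e-05). CYP26A1, on chromosome 10 (93073475 to 93077890), had 7.08 to 98.6 CPM in the film libraries (median 46.9), 2.71 and 21.1 CPM on differentiated plates, and 0 and 0.121 CPM in untreated cells. The untreated libraries held 0 and 2 reads of CYP26A1, so its fold is loosely fixed. The scaled counts, 473 reads on plates against 2 in untreated cells, gave a ratio of 206 with an exact 95% interval of 56.6 to 1700 that covers counting error only. The edgeR log2 fold change of CYP26A1 was 7.49 on plates (SE 1.62, adjusted p = 0.0045) and 9.52 on the films (SE 1.41, adjusted p = 9.9e-05). The plate call was lost when only the plate groups were fitted (adjusted p = 0.051), without plate replicate 2 (log2 fold change 5.34, adjusted p = 0.074) and without untreated replicate 1 (6.55, adjusted p = 0.1) or 2 (10.79, adjusted p = 0.11). The calls of RARG (log2 fold change -0.87, SE 0.28, adjusted p = 0.15) and RXRA (-1.83, SE 0.39, adjusted p = 0.07) on plates were lost as well when only the plate groups were fitted, and CYP26A1 was at 7.48 there. In that fit of 4 libraries the calls over all genes were 1.91%, against 29.6% with all 16 libraries, while these 3 log2 fold changes were nearly those of the fit of all libraries.

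DHRS3, on chromosome 1 (12567910 to 12617731), reduces retinal and so draws the precursor of retinoic acid back to retinol. It had 125 to 236 CPM in the film libraries (median 183), 80.7 and 216 CPM on differentiated plates, and 4.73 and 7.20 CPM in untreated cells. No differentiated library came near the untreated ones. The log2 fold change was 4.64 on plates (SE 0.45, adjusted p = 2.7e-05) and 4.91 for the films (SE 0.42, adjusted p = 1.2e-06).

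**Figure D2:**
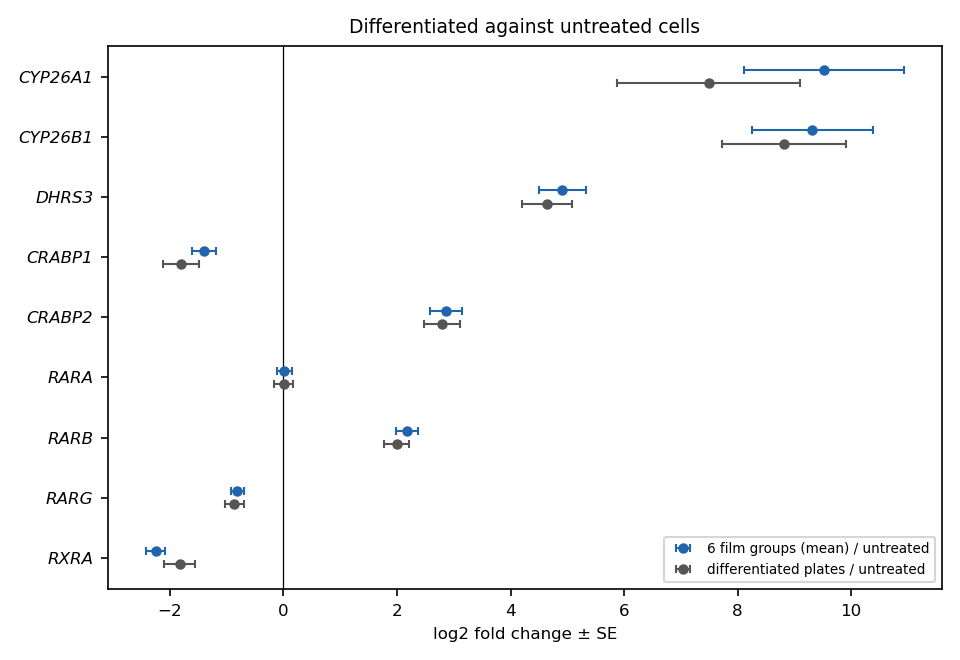
Log2 fold changes with their standard errors for the 6 film groups averaged (blue) and differentiated plates (grey) over untreated cells, from edgeR with 2 libraries a group. Members run from CYP26A1 at the top, 9.52 and 7.49, to RXRA at the bottom, -2.25 and -1.83, with RARA at 0.02 and 0.00.

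Per kb of exon the order on differentiated plates was CRABP2, CYP26B1 (162 ± 170 CPM per kb), DHRS3 (48.9 ± 32), RARB (22.4 ± 5.6), RARA (19.2 ± 5.4), RARG (8.19 ± 1.8), CRABP1, CYP26A1 (4.01 ± 4.4) and RXRA (0.989 ± 0.049). Only CRABP2 and CYP26B1, and RARA and RARG, differed from their neighbour in that order by more than the sum of their SDs. In untreated cells the order was CRABP2, CRABP1, RARA (19.2 ± 2.6 CPM per kb), RARG (14.9 ± 2.8), RARB (5.64 ± 1.3), RXRA (3.51 ± 1.8), DHRS3 (1.97 ± 0.57), CYP26B1 (0.361 ± 0.41) and CYP26A1 (0.0204 ± 0.029). There CRABP2 stood apart from CRABP1, RARG from RARB and DHRS3 from CYP26B1 by more than the sum of their SDs, and the other neighbours did not. The exon lengths count every annotated exon once, 11083 bases for RXRA, so a gene that uses few of them is set too low.

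Libraries are of bulk cells, so fewer cells of a type and less RNA per cell cannot be told apart. The summed level of 10 adrenergic neuroblastoma markers was 2290 to 2990 CPM in the film libraries, 3370 to 3410 CPM on differentiated plates and 5070 to 5080 CPM in untreated cells, and 5 of 9 tested fell and 1 rose on plates. That of 16 mesenchymal or fibroblast markers was 352 to 603 CPM in the film libraries, 380 to 443 CPM on differentiated plates and 1500 to 1780 CPM in untreated cells, and 12 of 14 tested fell on plates. Of 4 Schwann cell markers, which summed to 2.21 to 4.6 CPM in the film libraries, 2.95 to 4.02 CPM on differentiated plates and 4.14 to 9.08 CPM in untreated cells, 2 were tested, and SOX10 had no count. Of the adrenergic markers INSM1 had 4 counts, all in untreated cells, and the mesenchymal factor PRRX1 was at or near 0 throughout. The share of reads from ribosomal protein genes was 2.94% to 3.73% in the film libraries, 5.74% and 4.27% on differentiated plates and 6.44% and 9.28% in untreated cells. That of mitochondrially encoded genes was 4.58% to 7.33% in the film libraries, 8.58% and 5.42% on differentiated plates and 8.09% and 7.51% in untreated cells. Plate replicate 1, the library lowest for 7 members among the differentiated ones, thus had the highest mitochondrial share of all 16. The part these markers and shares play in the members' changes was not tested.

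The second comparison asks whether the members differ between films and plates among differentiated cells. None of the 9 was called on any film, stimulated or not, or for the mean of the 6 film groups, where between 1.25% and 7.78% of all genes were called. The share of all genes called was 1.68% for stimulated P(rGO) and 4.63% for unstimulated P(rGO), 1.25% for stimulated and 1.48% for unstimulated PEDOT:PSS, and 2.18% for stimulated and 4.23% for unstimulated ITO. For the mean of the films 4.05% of all genes were higher and 3.73% lower. The ribosomal protein share given above was lower in all 12 film libraries than in both plate libraries, and its part in these comparisons was not tested. DESeq2 called none of the members either. At an unadjusted p under 0.05, edgeR found CYP26A1 for the mean of the films, for P(rGO) and ITO with and without stimulation, and RXRA for unstimulated P(rGO).

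CYP26A1 was the member with the largest film difference. It had 39.6 and 50.0 CPM on stimulated P(rGO), 91.0 and 51.7 on P(rGO), 33.9 and 40.5 on stimulated PEDOT:PSS, 7.08 and 43.9 on PEDOT:PSS, 98.6 and 55.5 on stimulated ITO and 37.8 and 79.9 on ITO, against 2.71 and 21.1 CPM on plates. In all, 11 of the 12 film libraries lay above both plate libraries, and PEDOT:PSS replicate 1 did not; all 12 lay above both plate libraries for 9.24% of all genes and for no member. The log2 fold change for the films was 2.03 (SE 0.67, adjusted p = 0.083; 95% interval 0.60 to 3.47). Without PEDOT:PSS replicate 1 the log2 fold change was 2.16. That group then holds a single library, so the size is given and the call is not. Without the filter on low counts it stayed at 2.03 and was called in edgeR (adjusted p = 1.4e-26), as its SE fell from 0.67 to 0.18. That SE is small beside the difference between the plate replicates, 2.71 and 21.1 CPM, so this call does not weigh their spread. Without plate replicate 2 the log2 fold change was 4.18 for CYP26A1, 0.82 for CRABP2 and 1.17 for DHRS3. The plates are then the single library that was lowest for these members, so only the sizes are given.

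RXRA lay lower on the films. Its levels were 8.47 and 8.56 CPM on stimulated P(rGO), 6.93 and 6.02 on P(rGO), 8.63 and 8.39 on stimulated PEDOT:PSS, 8.23 and 7.79 on PEDOT:PSS, 10.04 and 9.73 on stimulated ITO and 7.46 and 8.50 on ITO, against 11.35 and 10.59 CPM on plates. All 12 film libraries were below both plate libraries, which held for 8.3% of all genes. The log2 fold change was -0.42 (SE 0.20, 95% interval -0.85 to 0.00, adjusted p = 0.23), and it was called once both untreated libraries were left out (-0.42, SE 0.12, adjusted p = 0.028), where 16.3% of all genes were called, against 7.78% with them. Leaving out untreated replicate 1 (adjusted p = 0.025) or 2 (adjusted p = 0.02) had the same effect on the call. For unstimulated P(rGO) alone it was -0.76 (adjusted p = 0.14), and 0.0089 was the adjusted p without the untreated libraries. CRABP1 was above both plate libraries in 11 of the 12 film libraries and below them in stimulated P(rGO) replicate 2, with a log2 fold change of 0.40 (95% interval -0.14 to 0.93).

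CYP26B1 had 603 and 1501 CPM on stimulated P(rGO), 1230 and 1415 on P(rGO), 1035 and 1473 on stimulated PEDOT:PSS, 483 and 1466 on PEDOT:PSS, 799.8 and 1333 on stimulated ITO and 1030 and 1559 on ITO, against 212 and 1417 CPM on plates. The lower plate library was below every film library and the higher one within their range. DHRS3 showed the same layout, with 154 and 236 CPM on stimulated P(rGO), 187 and 221 on P(rGO), 172 and 189 on stimulated PEDOT:PSS, 125 and 207 on PEDOT:PSS, 131 and 179.6 on stimulated ITO and 165 and 199.8 on ITO, against 80.7 and 216 CPM on plates. RARB had 86.9 and 109.9 CPM on stimulated P(rGO), 100.9 and 103.9 on P(rGO), 85.6 and 97.4 on stimulated PEDOT:PSS, 76.0 and 95.5 on PEDOT:PSS, 84.1 and 86.7 on stimulated ITO and 89.7 and 117 on ITO, against 68.4 and 97.5 CPM on plates. Plate replicate 1 was again the lowest of the 14 differentiated libraries, as it was for CYP26A1, CRABP2, RARA and RARG.

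For the other members the interval of the mean film difference was -0.74 to 1.74 for CYP26B1, -0.41 to 0.55 for CRABP2, -0.34 to 0.89 for DHRS3, -0.15 to 0.52 for RARB, -0.27 to 0.29 for RARA and -0.23 to 0.33 for RARG, on the log2 scale. CYP26B1 thus allows a difference of over 2-fold upward, while the intervals of RARA and RARG are the narrowest of the 9. No member differed among the 3 unstimulated films, or among the 3 stimulated ones, at an adjusted p of 0.05 in edgeR or DESeq2, and none had an unadjusted p under 0.05. Among all genes edgeR called 0 in both, with 239 and 463 at an unadjusted p under 0.05, and DESeq2 called 1 and 4.

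The third comparison asks what electrical stimulation did on each film. No member was called on any film, for the mean effect over the 3 films or for a difference in effect between films, and none had an unadjusted p under 0.05. Across all genes edgeR called 0% in each of these tests, with 986, 126 and 293 genes at an unadjusted p under 0.05 on P(rGO), PEDOT:PSS and ITO, 1021 for the mean effect and 133 for the difference, and DESeq2 called 12, 0, 0, 2 and 0.

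RXRA, the shared partner of the receptors, was the member whose stimulated libraries lay above both unstimulated ones on all 3 films, as the values given above show. That held for 1.07% of all genes, and 1.31% were below on all 3. The mean effect was 0.26 on the log2 scale (SE 0.16, 95% interval -0.08 to 0.60, adjusted p = 0.92), with 0.39 for P(rGO), 0.31 for ITO and 0.09 for PEDOT:PSS. RARA had 109 and 99.0 CPM on stimulated P(rGO), against 97.3 and 87.5 CPM without stimulation, and 99.2 and 91.9 CPM on stimulated PEDOT:PSS, against 81.0 and 90.7 CPM without. Its stimulated libraries were above both unstimulated ones on these 2 films, as in 18.1% and 17.7% of all genes, and overlapped on ITO.

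RARG was not called on any film, with an unadjusted edgeR p of 0.18 on PEDOT:PSS and 0.44 on ITO. It had 46.8 and 47.8 CPM on stimulated PEDOT:PSS, against 42.8 and 37.2 CPM without stimulation, and 42.5 and 42.2 CPM on stimulated ITO, against 46.1 and 47.0 CPM without. The libraries do not overlap on either film, in opposite directions, as in 17.7% (above, PEDOT:PSS) and 13% (below, ITO) of all genes. The difference in effect between films was not called for RARG (edgeR adjusted p = 1.0). CRABP2 had 1127 and 1268 CPM on stimulated P(rGO), against 1507 and 1565 CPM without, and 1005 and 1189 CPM on stimulated ITO, against 1215 and 1246 CPM without. Both stimulated libraries were below both unstimulated ones on these films, as in 20.4% and 13% of all genes, and the mean effect over 3 films was -0.15 (95% interval -0.51 to 0.21). On 1 film each, CYP26A1, CRABP1 and RARB had both stimulated libraries below both unstimulated ones. For CYP26A1 that was P(rGO), with 39.6 and 50.0 CPM stimulated, against 91.0 and 51.7 CPM without, as in 20.4% of all genes. For CRABP1 it was PEDOT:PSS, with 10.19 and 9.31 CPM stimulated, against 12.96 and 10.71 CPM without, as in 18.7%. For RARB it was ITO, with 84.1 and 86.7 CPM stimulated, against 89.7 and 117 CPM without, as in 13%. CYP26B1 and DHRS3 overlapped on all 3 films.

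CYP26A1 had a mean effect of stimulation of 0.08 (95% interval -0.82 to 0.99) and CYP26B1 of -0.08 (-0.98 to 0.82). A change of over 1.5-fold either way is inside those intervals, so the degrading enzymes are the members for which the 2 libraries a group say least. The intervals were -0.09 to 0.33 for RARA, -0.33 to 0.17 for RARB, -0.13 to 0.29 for RARG, -0.62 to 0.16 for CRABP1 and -0.51 to 0.39 for DHRS3.

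**Figure D3:**
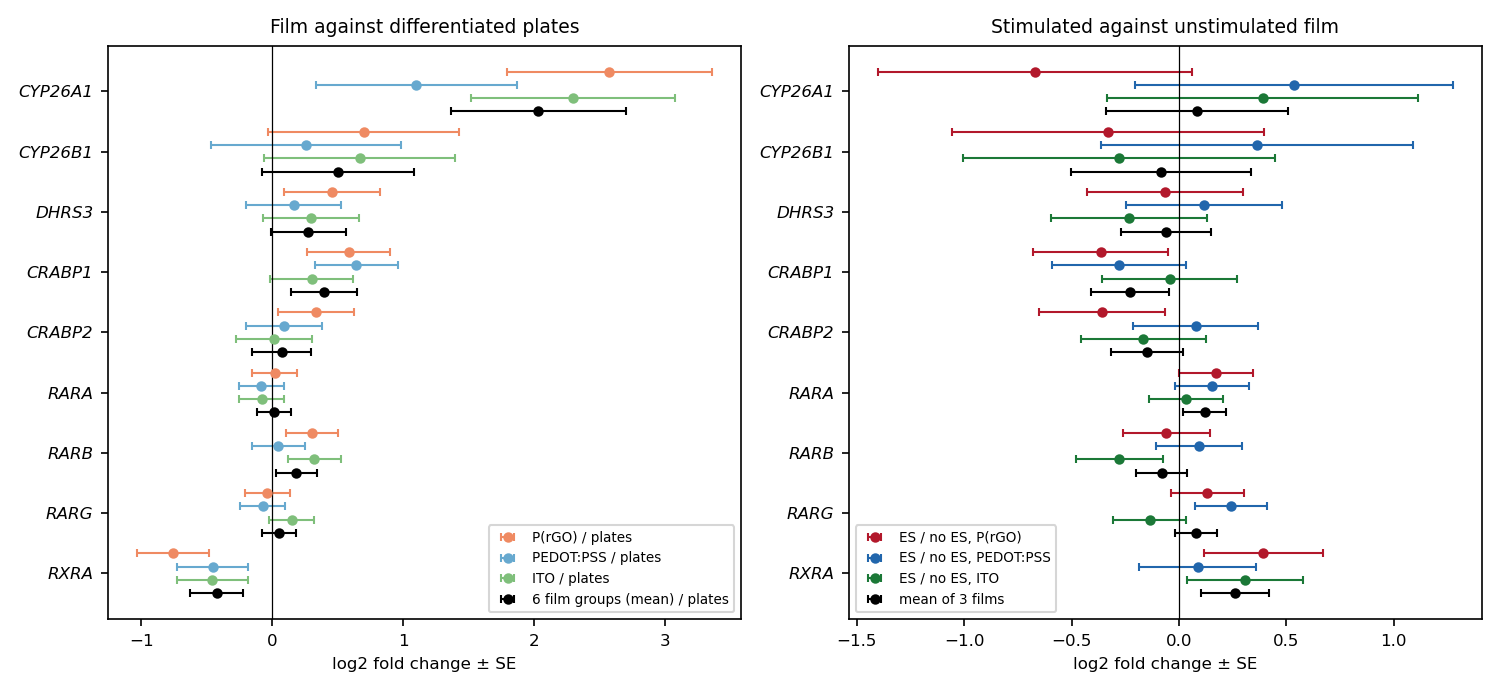
Log2 fold changes with their standard errors of the 9 members for unstimulated film over differentiated plates (left, with the mean of all 6 film groups in black) and for stimulated over unstimulated film (right, with the mean of 3 films in black). CYP26A1 lies at 2.03 and RXRA at -0.42 for the mean of the films, and mean effects of stimulation run from -0.23 for CRABP1 to 0.26 for RXRA.

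Within groups, 4 members differed between the replicates in the same direction each time. CYP26B1, CRABP2, DHRS3 and RARB were higher in replicate 2 than in replicate 1 in 7 of 7 differentiated groups, as were 4.25% of all genes. CYP26B1 had 1501 CPM in replicate 2 and 603 CPM in replicate 1 on stimulated P(rGO), 1466 and 483 CPM on PEDOT:PSS, and 1417 and 212 CPM on plates. The ratio of replicate 2 to replicate 1 had a median of 1.67 for CYP26B1 (1.15 to 6.68), 1.37 for DHRS3 (1.10 to 2.68), 1.26 for RARB (1.03 to 1.43) and 1.18 for CRABP2 (1.03 to 2.33). Replicate 2 of CYP26B1 was 1333 to 1559 CPM across the 7 groups, and replicate 1 was 212 to 1230 CPM, so the groups' spread for this gene lay mostly in replicate 1. CYP26A1 was higher in replicate 2 in 5 of 7 groups, RARA and RARG in 3, and CRABP1 and RXRA in 2. In an edgeR quasi-likelihood fit of the 14 differentiated libraries with a term for the replicate, chosen after seeing the data, RARB was called higher in replicate 2 (log2 difference 0.26, SE 0.06, adjusted p = 0.043), where 2.53% of 17778 genes were called (1.36% higher, 1.17% lower). DHRS3 (0.55, adjusted p = 0.059), CYP26B1 (1.08, adjusted p = 0.082) and CRABP2 (0.37, adjusted p = 0.13) were not called. Without the 2 plate libraries, DHRS3 (0.41, adjusted p = 0.0066) and CRABP2 (0.24, adjusted p = 0.043) were called as well as RARB. The share of all genes called in that fit is not given here, so these calls cannot be weighed against it. The share of reads from mitochondrially encoded genes was lower in replicate 2 in 6 of 7 groups, at 4.58% to 5.76% against 5.67% to 8.58% in replicate 1, and that of ribosomal protein genes likewise in 6 of 7, at 2.94% to 4.27% against 3.18% to 5.74% in replicate 1. Whether these shares bear on the members' replicate differences was not tested, and the labels do not say what the replicates' prefixes stand for.

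**Figure D4:**
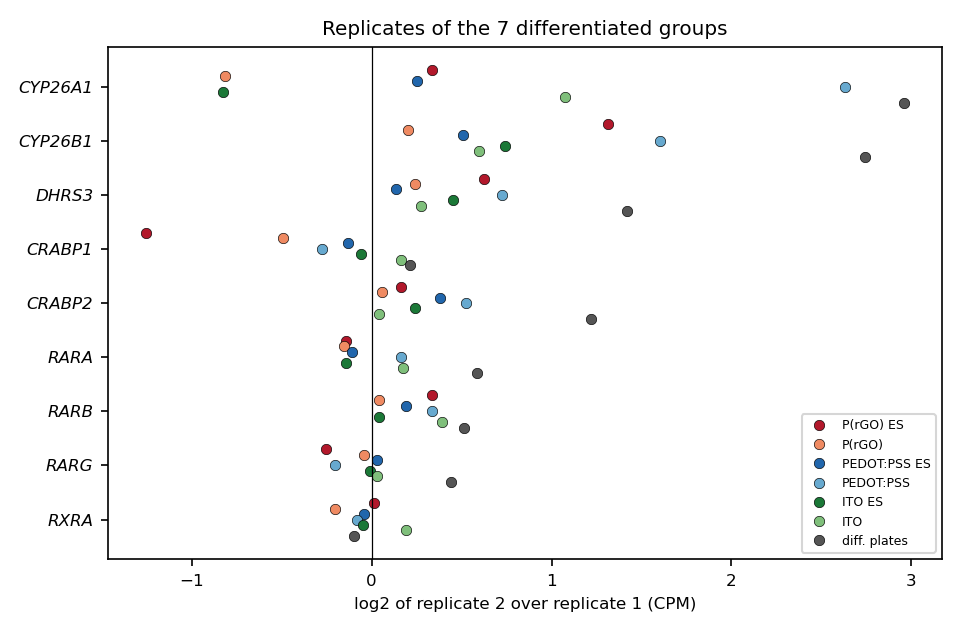
Log2 ratio of replicate 2 over replicate 1 in CPM for the 9 members in each of the 7 differentiated groups; points right of 0 are higher in replicate 2. All 7 points of CYP26B1, DHRS3, CRABP2 and RARB are right of 0, up to a ratio of 6.68 for CYP26B1 on plates.

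Other genes of the pathway were taken from 3 lists, whose counts stand against the shares of all genes called: 13.8% higher and 15.8% lower on plates against untreated cells, 4.05% and 3.73% on the films against plates, and 21.9% and 26% on the films against untreated cells. Of 26 genes of retinoid synthesis and storage 12 were tested: on plates 1 rose and 2 fell against untreated cells, with a median log2 fold change of -0.20, against -0.01 for all genes. BCO2, which cleaves carotenoids, rose (1.58, SE 0.38, adjusted p = 0.0084), and RDH14 (-0.69) and the retinol carrier RBP7 (-4.28) fell. On the films against plates 2 rose and 0 fell, with a median of 0.28, against -0.02 for all genes: ALDH1A2, which makes retinoic acid from retinal (1.39, SE 0.32, adjusted p = 0.016), and the retinal reductase RDH11 (0.41, SE 0.11, adjusted p = 0.031).

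Of 19 other receptors, carriers and coregulators 13 were tested, and on plates 5 rose and 1 fell against untreated cells, with a median of 0.34. Those that rose were the orphan receptor NR2F1 (1.21, adjusted p = 0.00014) and the coactivators CREBBP, EP300, NCOA1 and NCOA2, by 0.85, 0.69, 0.60 and 0.72, and TACC1 fell by 0.77 on the log2 scale. On the films against plates PPARD, a receptor that can take retinoic acid from FABP5, rose (0.98, SE 0.17, adjusted p = 0.0034), and NR2F1 fell by 0.62 (SE 0.11, adjusted p = 0.0033). CYP26C1, the remaining CYP26 enzyme, had 36 counts in all, and RXRG had none. FABP5 was called lower for the mean of the film groups than in untreated cells (-0.85, SE 0.29, adjusted p = 0.026). Its untreated level was 13.1 CPM with an SD of 10.0 (n = 2), against film group means of 6.49 to 8.62 CPM. The untreated libraries thus differ widely, and the fall may rest on 1 of them.

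Of 40 retinoic acid responsive genes other than the members 23 were tested, and 6 rose and 6 fell on plates against untreated cells, with a median of 0.25. NTRK2, the BDNF receptor (5.35, SE 0.44, adjusted p = 1.4e-05), HIC1 (2.80, SE 0.29) and RET, a receptor tyrosine kinase (1.77, SE 0.30), rose. ICAM1, a cell adhesion protein, fell (-5.23, SE 1.07). It had 41 reads in untreated cells and 1 on differentiated plates, so its fold is loosely fixed. On the films against plates 5 rose and 2 fell, with a median of 0.04, among them EGR1 (3.08, SE 0.49, adjusted p = 0.0021) and the growth cone protein GAP43 (0.91, SE 0.20) upward and TFAP2B (-0.76, SE 0.16) downward. With the 6 film groups averaged against untreated cells, 4 genes of synthesis and storage were higher and 3 lower, 7 of the other receptors, carriers and coregulators were higher and 1 lower, and 8 of the responsive genes were higher and 7 lower, with medians of 0.03, 0.59 and 0.04, against 0.00 for all genes. With 12 to 23 genes tested a list, these counts make no test of a list. For stimulation 0 of the 18081 genes tested were called on any film, so none of the 3 lists could hold a called gene.

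For the 4 members with the widest range, the 3 genes nearest in pattern were found among 10613 protein-coding genes by the root mean square difference of centred log2 CPM over the 16 libraries. CYP26A1 and CYP26B1 were each other's nearest gene, at 1.07, and TXK followed at 1.20 from CYP26A1 and 1.44 from CYP26B1. DHRS3 was nearest to ABTB2 (0.37), NCAM2 (0.45) and RHBG (0.46), and CRABP2 to DLG2 (0.15), FOXC1 (0.22) and IQCJ-SCHIP1 (0.24). Group means of CYP26A1 spanned 8.87 and those of CYP26B1 10.04 log2 units, against 5.10 for DHRS3 and 3.13 for CRABP2, so larger differences go with wider ranges here.

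STRA6, the retinol uptake receptor on chromosome 15 (74179466 to 74212267), had 1 read, in PEDOT:PSS replicate 1, and 0 in the other 15 libraries. In those 15, a count of 0 allows up to 0.141 to 0.182 CPM per library (3 counts, counting error only). The neighbouring genes ISLR, CCDC33, CYP11A1, SEMA7A and UBL7 also had at most 1 read over all libraries, whereas the next ones out on either side, ISLR2 and ARID3B, had 125177 and 15924. RXRB and TUBB, which most cells express, had 0 and 7 reads. A 0 in this table therefore cannot be read as a gene that is not expressed, and why these rows are empty was not tested.

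Some members share bases with other annotated genes. CYP26A1 shares 750 exon bases, 25.2% of its own, with an unnamed transcript on its strand that has 0 reads, and reads that fit both may have gone to neither, so its level may be too low. RARA overlaps RARA-AS1, which had 3536 reads, over 556 bases on the opposite strand. CRABP1 overlaps an unnamed gene with 0 reads over 469 bases, also on the opposite strand. RARB shares 28 exon bases, 0.757% of its own, with TOP2B on the opposite strand, which had 101142 reads. The kit keeps strand, but no source used here states how HTSeq was set, so such pairs may share reads.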

How the data were processed

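The deposited table holds raw counts per gene for 16 polyA libraries, laid out as HTSeq writes them, per the file headers. STAR, HTSeq and the builds GRCh38.p13 and hg38 are named in the submitters' processing notes, with no versions. The table has 69222 gene rows, of which 32387 have no count, and 5 summary rows that were left out. Reads placed at more than 1 position go to a summary row, so near-identical genes are uncertain. Symbols were matched for 62639 IDs. Coordinates, exon lengths and overlaps come from GENCODE 29 (GRCh38).

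From the counts, R 4.3.3 with edgeR 4.0.16 was used: default expression filter over the 8 groups (18081 genes), trimmed mean of M values scaling and a robust quasi-likelihood model with 1 mean per group over all 16 libraries, which leaves 8 residual degrees of freedom. Each SE was taken as the size of the log2 change over the square root of its F, and 95% intervals use the t distribution with the test's own degrees of freedom, 14 for the members in this model. The method was tested on simulated data. That test covered changes between differentiated plates and untreated cells in well-counted genes, and not the other comparisons. Films and differentiated plates were compared with untreated cells, films with plates and with one another, and stimulated with unstimulated films. With 2 libraries a group, precision is limited.

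The members were given by name, and the members and lists were chosen with earlier results of these data known. Listed genes are named where called, up to 5 a list and comparison by smallest p. FABP5 is named besides these. A few listed genes are not reported here. Alternatives were DESeq2 1.42.0, scaling by relative log expression, a replicate block, no filter on low counts, fits of the compared groups alone or without untreated cells, and each replicate left out. The comparison of replicate 2 with replicate 1 was added after seeing the data.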

Additional observations from a re-analysis of the deposited data

How the results depend on the processing

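Of the members' called values, 333 recomputed ones kept direction and call and 6 lost the call. Of those not called, 2097 stayed, 112 moved by more than the SE of the main fit and 35 gained a call. No called value changed sign. Joint tests, which have no log2 fold change, are not in these counts. On plates against untreated cells, 8 members were called, and 5 when only the groups compared were fitted, where the calls over all genes were 1.91% against 29.6%; the log2 fold changes of the 3 lost calls hardly moved. Without the low-count filter members were called for films against plates, 1 on stimulated and 2 on unstimulated P(rGO), 2 on stimulated and 1 on unstimulated PEDOT:PSS, 1 on stimulated and 2 on unstimulated ITO, 2 for the mean of the films, 1 for the difference in the effect of stimulation, and 1 each among unstimulated and stimulated films, all against 0 with the filter. For CYP26A1 the log2 fold change for the mean of the films was 2.03 in both fits, with an SE of 0.18 without the filter and 0.67 with it. The cause was not tested. Without the untreated libraries 1 member was called on P(rGO) and 1 for the mean of the films, and 1 for the mean of the films when only the groups compared were fitted. Leaving out 1 replicate changed the number of members called on P(rGO) and ITO, with and without stimulation, and for the mean of the films. With replicate 2 against replicate 1, a comparison chosen after seeing the data, 1 member was called, 5 without the filter and 3 without the plate libraries. The share of all genes called also moves with the setting, as the 1.91% against 29.6% above shows. For most of these settings, among them every fit without the filter, that share is not given here. Their counts of members cannot be weighed against all genes. Counts that change between settings are thus no result about the members.

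In the file headers every replicate 1 library shares a prefix and every replicate 2 library another, but no label says what these stand for. Deviations of same-numbered libraries correlated at -0.19 to 0.29 over 28 pairs of groups, and 16 were over 0.1. With a replicate block, 8 members were called on plates against untreated cells and 0 in the film and stimulation comparisons, as without it. Each group holds 2 libraries, and STRA6 is limited by its counts.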
